A study of Mus musculus with 27 samples.

Results

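The genes described here are 38 genes of the cell cycle and mitosis. They were read from every non-control probe of the array that carried their names, and the log2 ratios of a gene's probes were averaged. All 38 genes were found, by 62 probes, among 28146 gene names on the array. Listed by the step they serve, they were 5 genes of the G1 phase and its exit, 10 of DNA replication, 2 of nucleotide supply, 4 that form the mitotic cyclin and Cdk1 complexes, 6 mitotic kinases and checkpoint genes, 5 of the centromere and chromosomes, 4 spindle motors and bundling proteins and 2 of mitotic exit.

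Cells pass from G1 through DNA synthesis to mitosis as successive cyclins activate cyclin-dependent kinases. E2F factors turn on the replication genes before DNA synthesis, whereas genes of mitosis are turned on later, through promoter elements named the CCAAT box and the CHR (cell cycle genes homology region). In stratified squamous epithelium, division takes place mainly in the basal layer, and the cells above it leave the cycle and keratinize.

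The study followed the metaplasia phase, in which the columnar epithelium of the embryonic esophagus is replaced by a keratinized stratified squamous epithelium, and the maturation phase from postnatal day 7 (P7) to the adult. Wild-type C57BL/6J whole esophagi were taken at embryonic days 11.5 (E11.5) and 15.5 (E15.5), at birth (P0) and at P7, and Nrf2-/-, Keap1-/- and Nrf2-/-Keap1-/- whole esophagi on the C57BL/6J background at P7. The adult groups were esophageal epithelium, not whole esophagus, of wild-type and Nrf2-/- mice at 8 weeks. Each of the 9 groups held 3 biological replicates, all animals were bred in-house, and Keap1-/- pups have a thickened keratin layer in the upper digestive tract and die within weeks of birth. Nrf2, encoded by Nfe2l2, is a transcription factor of the antioxidant response, and Keap1 directs its degradation. RNA of the sample, labelled with Cy5, was hybridized against a universal reference RNA pooled from mouse cell lines, labelled with Cy3. Every level below is a log2 ratio of Cy5 to Cy3, so that 0 stands for the level in the reference and each unit for a doubling.

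Promoter sequences of 30 of the 38 genes were listed by RefSeq for the GRCm38.p6 build, and the 250 bases before the start of each were searched on both strands. The letters CCAAT (the CCAAT box) were found in 24 of 31 promoters (77.4%, Mcm7 having more than 1 promoter), against 33.8% of all 32851 promoters. TTTGAA or TTTAAA (the CHR) was found in 16 of 31 (51.6%) against 25.2%, and both kinds together in 13 (41.9%) against 8.78%. TTTGGCGC, TTTCGCGC or TTTCCCGC (E2F) was found in 5 (16.1%) against 1.53% of all promoters, namely those of Cdc6, Mcm5, Mcm6, Mcm7 and Cdk1. Matches were allowed to overlap, within a kind and between kinds. By step, CCAAT was held by 5 of 5 mitotic kinase and checkpoint genes with a listed promoter, 3 of 3 of the cyclin and Cdk1 complexes, 2 of 2 of mitotic exit, 7 of 8 of replication, 4 of 5 of the centromere and chromosomes, 1 of 2 of nucleotide supply, 1 of 3 of the spindle and 0 of 2 of G1. The CHR was held by 3 of 3 genes of the cyclin and Cdk1 complexes, 2 of 2 of mitotic exit, 4 of 5 of the centromere and chromosomes, 2 of 3 of the spindle, 3 of 8 of replication, 1 of 2 of G1, 1 of 5 of the mitotic kinases and checkpoint and 0 of 2 of nucleotide supply. A match is a string of letters and no evidence of a bound factor. The upstream sequences of 5 genes are shown as examples, 3 of mitosis (Ccnb1, Cdc20 and Plk1) and 2 of DNA synthesis (Mcm6 and Rrm2). They run 5′ to 3′ on the gene's strand, with matches in capitals, and do not stand for all genes of their steps.
Ccnb1, chr13:100786487-100786736, minus strand: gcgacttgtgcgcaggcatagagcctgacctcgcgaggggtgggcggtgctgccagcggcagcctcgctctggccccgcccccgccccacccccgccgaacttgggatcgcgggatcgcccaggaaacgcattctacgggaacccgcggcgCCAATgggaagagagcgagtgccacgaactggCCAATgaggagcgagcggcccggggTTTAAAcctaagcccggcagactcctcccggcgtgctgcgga
Cdc20, chr4:118437344-118437593, minus strand: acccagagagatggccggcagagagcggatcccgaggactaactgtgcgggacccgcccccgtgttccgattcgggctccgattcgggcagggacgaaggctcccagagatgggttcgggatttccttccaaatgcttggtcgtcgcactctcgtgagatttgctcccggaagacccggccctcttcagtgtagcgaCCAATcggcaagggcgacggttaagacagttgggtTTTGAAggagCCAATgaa
Plk1, chr7:122159185-122159434, plus strand: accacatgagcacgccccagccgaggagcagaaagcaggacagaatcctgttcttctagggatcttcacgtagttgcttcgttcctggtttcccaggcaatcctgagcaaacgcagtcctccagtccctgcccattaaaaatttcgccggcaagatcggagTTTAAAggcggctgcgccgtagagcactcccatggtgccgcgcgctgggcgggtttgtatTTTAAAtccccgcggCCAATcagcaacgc
Mcm6, chr1:128359706-128359955, minus strand: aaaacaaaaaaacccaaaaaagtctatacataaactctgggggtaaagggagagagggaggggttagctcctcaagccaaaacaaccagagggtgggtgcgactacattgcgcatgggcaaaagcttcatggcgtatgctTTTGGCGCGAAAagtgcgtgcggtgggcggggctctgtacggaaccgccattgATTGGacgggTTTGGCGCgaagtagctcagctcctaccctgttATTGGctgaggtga
Rrm2, chr12:24708004-24708253, plus strand: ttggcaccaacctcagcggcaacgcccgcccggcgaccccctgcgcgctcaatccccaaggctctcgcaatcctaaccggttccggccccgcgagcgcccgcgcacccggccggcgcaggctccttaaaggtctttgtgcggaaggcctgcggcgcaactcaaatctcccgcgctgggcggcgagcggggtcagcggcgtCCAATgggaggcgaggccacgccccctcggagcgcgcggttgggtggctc
The 3 mitotic genes shown held CCAAT and CHR matches close to the start, with the nearest CHR 36, 12 and 23 bases upstream of Ccnb1, Cdc20 and Plk1. Plk1 was the 1 of 5 mitotic kinase and checkpoint genes with a CHR match. The replication gene Mcm2, not shown, also held a CCAAT match (170 bases upstream) and a CHR match (64 bases upstream), and no E2F match. Mcm6 held 2 CCAAT matches, the nearest 9 bases upstream, and 3 E2F matches, of which a pair overlapped. Rrm2 held 1 CCAAT match, 45 bases upstream, and none of the other letters stood in this window.

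Across the 27 arrays, 58.9 to 69.3% of spots were well above background in Cy5. By at least 1 probe, every one of the 38 genes was well above background on all 3 arrays of each group, except Cdc45 on 2 of 3 wild-type adult arrays, and none was saturated. Of the 62 probes, 8 were above background on fewer than 14 arrays (1 each of Mcm4, Tyms, Cdk1, Cdca8, Cenpa and Top2a and 2 of Kif11), and they entered the gene averages. Without such probes, a choice made after seeing the data, the change of Kif11 from E11.5 to P7 was -0.81 in place of -0.28, and the differences between Keap1-/- and wild type were -0.88 in place of -0.37 for Mcm4 and -0.99 in place of -0.45 for Cenpa, and all 3 became called (adjusted p = 0.00122, 0.0251 and 0.0182). Probes of the same gene disagreed in sign in 7 genes from E15.5 to P7, 5 from P7 to wild-type adult and 5 in Keap1-/- against wild type. Not all were dim: a Bub1 probe above background on 27 arrays changed by 0.11 from E15.5 to P7 and differed by 0.01 in Keap1-/-. In an older annotation of the array this probe carried a name other than Bub1, and it was averaged into Bub1 here. The other Bub1 probe gave -1.90 and -1.34. Feature Extraction, the scanner's spot-reading program, marked 26.2% of the spots of these genes as outliers, and those spots were kept. Basal squamous markers, 8 of 8, were above background on all arrays. Nfe2l2, the targeted gene, differed from wild type by -3.63 (log2) in Nrf2-/- at P7, by -3.86 in Nrf2-/-Keap1-/- and by -4.30 in adult Nrf2-/- epithelium, and all 3 differences were called. The Keap1 probe did not separate the genotypes by the test (log2 difference -0.45, adjusted p = 0.145, in Keap1-/- and -0.99, adjusted p = 0.0796, in Nrf2-/-Keap1-/-), and whether it lies in the deleted part of the gene is not given in the sources used here. The array labelled E11.5 replicate 3 correlated over all genes at 0.981 and 0.976 with E15.5 replicates 2 and 3 but at 0.831 and 0.774 with its own group, whereas E15.5 replicate 1 reached 0.958 and 0.928 with E11.5 replicates 1 and 2 but at 0.804 and 0.813 with its own. The labels were kept, and the counts of calls that rest on these arrays are also given without both.

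**Figure D1:**
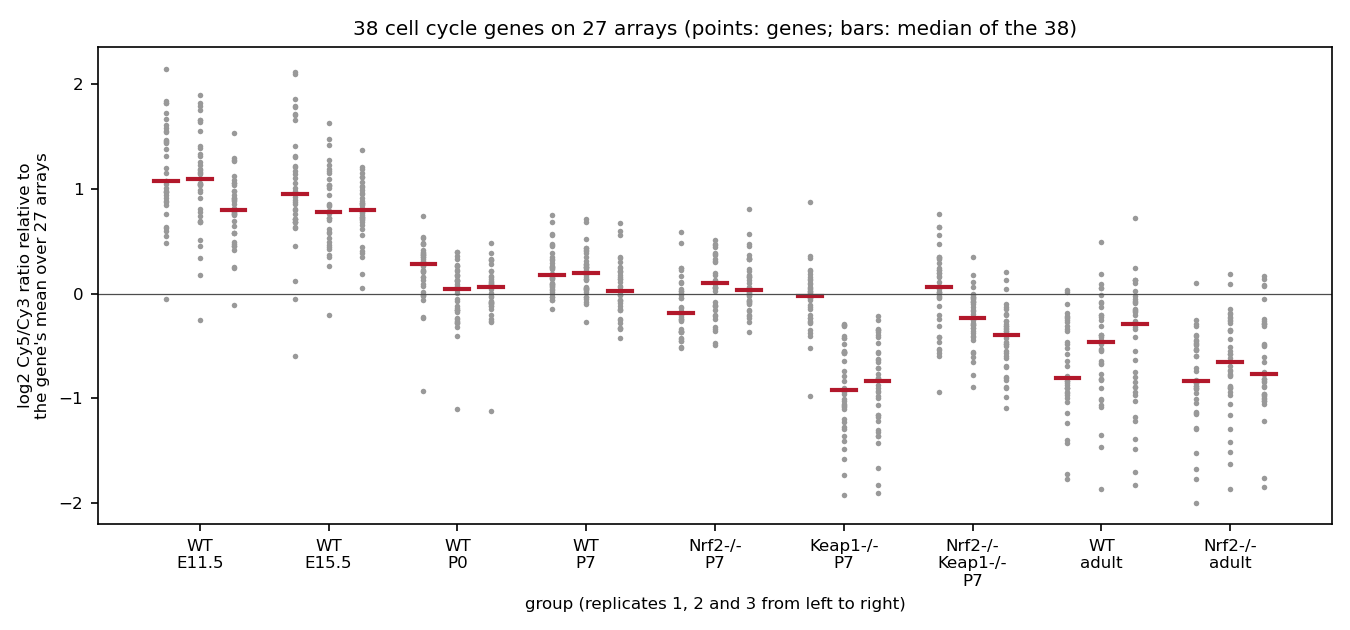
Level of the 38 cell cycle and mitosis genes on each of the 27 arrays, as log2 Cy5/Cy3 minus the mean of that gene over all arrays; each point is a gene and each bar the median of an array. The medians lay between 0.78 and 1.097 on the embryonic arrays, between -0.92 and 0.28 at P0 and P7 in all genotypes, and between -0.84 and -0.29 in adult epithelium.

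Most of the 38 genes were expressed most strongly in the embryo. Among the 4 wild-type times of the metaplasia phase, 32 had their highest mean at E11.5, 5 at E15.5 and 1, Ccnd1, at P7, and 21 had their lowest at P0 and 17 at P7. In a moderated F-test (limma, 12 arrays), 36 of 38 genes differed among the 4 times at an adjusted p of at most 0.05, the threshold for a call here, against 30% of the 19709 genes tested. The median F over the 38 was 14.01. E2f1, a transcription factor that drives entry into DNA synthesis, and Ccnd2, a D cyclin of G1, did not pass (adjusted p = 0.233 and 0.409). Without both arrays that stood apart from their labels, 37 passed, all but Ccnd2.

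The gene of each step with the largest F is given on every array, in the order of the replicates. Ccnb1, cyclin B1 that activates Cdk1 at the start of mitosis, was at 0.27, -0.15 and -0.29 at E11.5, -0.20, -0.17 and -0.23 at E15.5, -0.99, -1.01 and -1.18 at P0 and -1.09, -1.27 and -1.36 at P7 (F = 34.7, adjusted p = 0.000345). The 6 embryonic arrays all lay above the 6 postnatal ones. Kif20a, a kinesin of the central spindle and of cytokinesis, was at 0.71, 0.42 and 0.14 at E11.5, 0.65, 0.29 and 0.08 at E15.5, -0.59, -0.87 and -0.84 at P0 and -1.07, -0.93 and -1.46 at P7 (F = 31.3, adjusted p = 0.000454). Its embryonic levels were above the reference and its postnatal levels below it. Ccne2, cyclin E2 of the passage from G1 to DNA synthesis, was at 0.64, 0.14 and 0.63, then 0.81, 0.72 and 0.47, then -0.70, -0.73 and -0.52, and at P7 -0.44, -1.18 and -0.56 (F = 25.5, adjusted p = 0.000852). P0 and P7 overlapped, and both lay below every embryonic array.

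Rrm2, the subunit of ribonucleotide reductase that limits the supply of deoxynucleotides, was at -0.12, -0.03 and -0.40 at E11.5, -0.12, -0.41 and -0.39 at E15.5, -1.41, -1.50 and -1.42 at P0 and -0.43, -0.49 and -1.03 at P7 (F = 22.4, adjusted p = 0.00123). It was lowest at P0 and stood between the embryonic and P0 levels at P7. Pcna, the sliding clamp of the replication fork, was at -0.38, -0.32 and -0.47, then -0.58, -0.50 and -0.43, then -0.92, -1.24 and -1.08, and at P7 -0.96, -1.003 and -0.99 (F = 21.7, adjusted p = 0.00135). Plk1, a kinase of spindle assembly and mitotic exit, was at 0.46, -0.03 and -0.04, then 0.23, -0.14 and -0.09, then -0.60, -0.68 and -1.20, and at P7 -1.14, -1.07 and -1.33 (F = 21.6, adjusted p = 0.00137). In both genes the embryonic and postnatal arrays did not overlap.

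Birc5 (survivin), a subunit of the chromosomal passenger complex, was at 0.86, 0.31 and 0.20, then 0.55, 0.16 and 0.10, then -0.52, -0.73 and -0.89, and at P7 -0.72, -0.35 and -0.71 (F = 17.8, adjusted p = 0.00241). Ube2c, the ubiquitin-conjugating enzyme that works with the anaphase-promoting complex, was at 0.01, -0.22 and -0.60, then -0.28, -0.61 and -0.42, then -1.06, -1.72 and -1.40, and at P7 -1.26, -1.21 and -1.52 (F = 17.7, adjusted p = 0.00246). Again all embryonic arrays were higher than all postnatal ones.

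**Figure D2:**
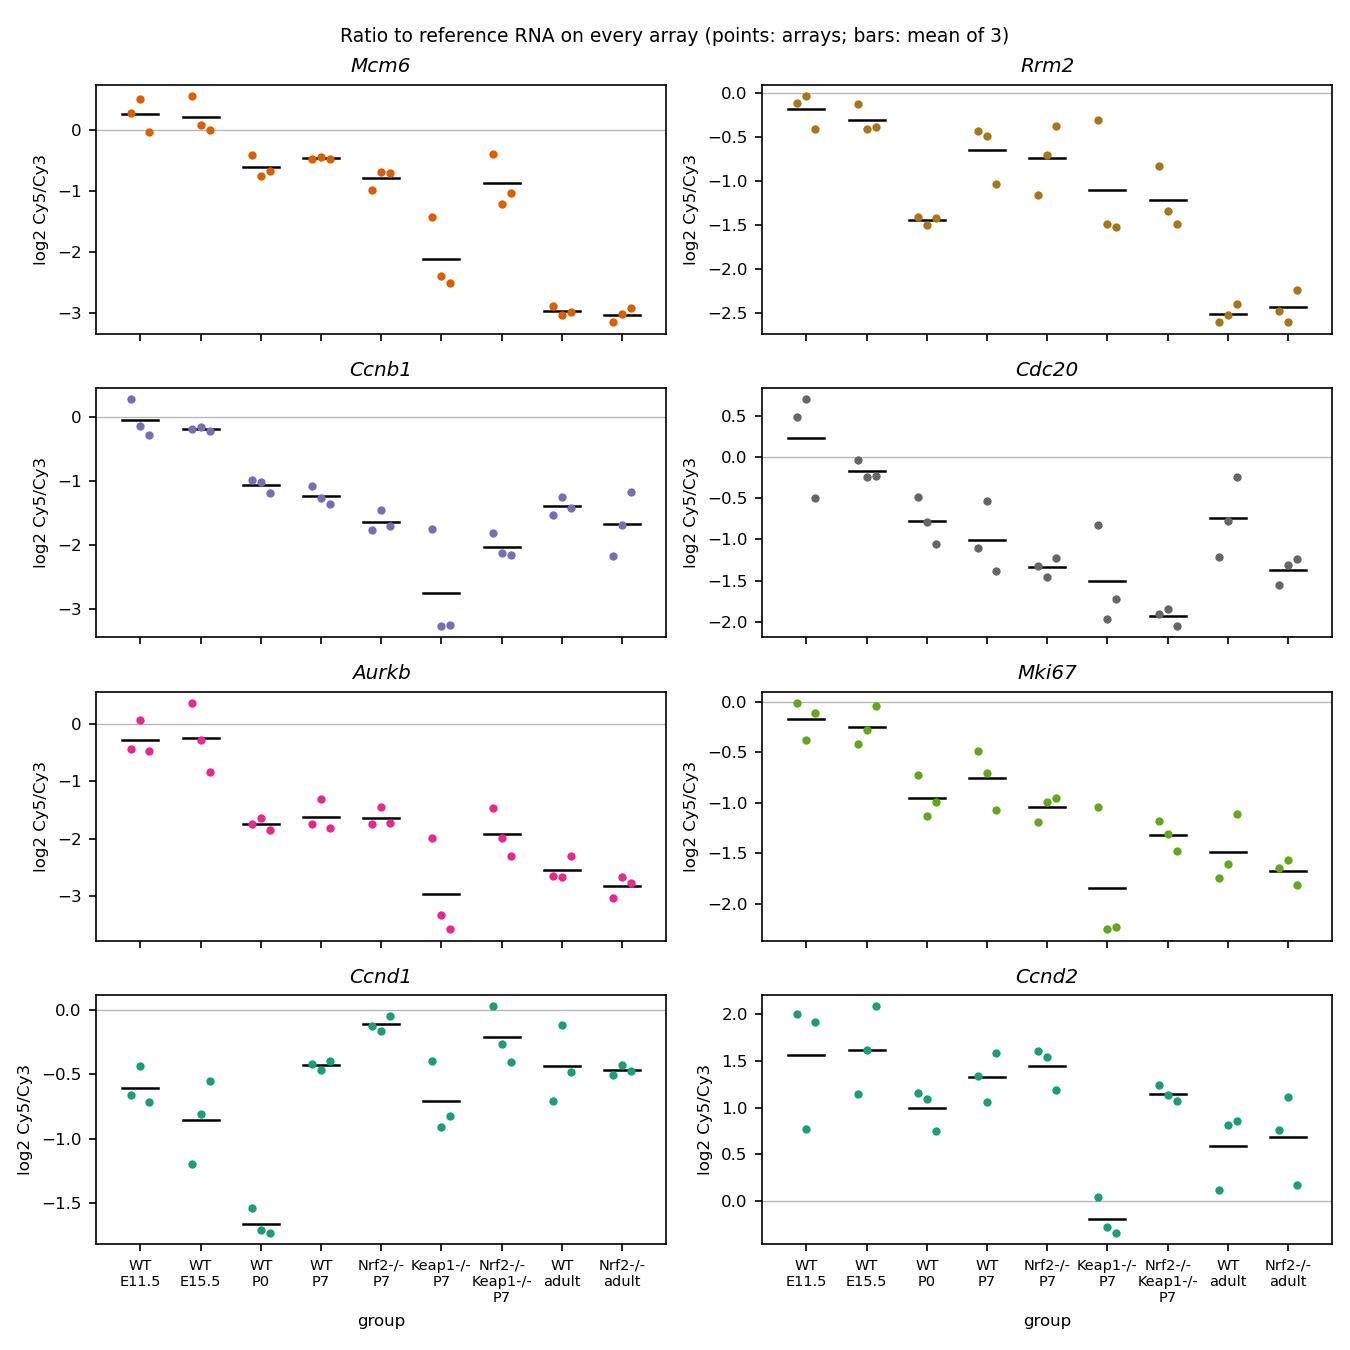
Log2 Cy5/Cy3 of 8 of the genes on each array of the 9 groups, with 1 point per array and a bar at the mean of the 3 arrays. Mcm6, Rrm2, Ccnb1, Cdc20, Aurkb and Mki67 have their highest group means in the embryo, whereas Ccnd1 is lowest at P0 and Ccnd2 is lowest in Keap1-/- at P7.

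Between E11.5 and E15.5 none of the 38 genes was called, and limma called 0% of all genes. The median log2 change of the 38 was -0.14 (range -0.40 to 0.19), 33 were lower at E15.5 and none had an unadjusted p under 0.05. Mki67, a protein of the mitotic chromosome surface used as a marker of dividing cells, was at -0.01, -0.38 and -0.11 at E11.5 and -0.42, -0.28 and -0.04 at E15.5 (log2 change -0.08, SE 0.18). Ccnd2 was at 2.00, 0.77 and 1.92 and then 1.14, 1.61 and 2.08 (log2 change 0.05, SE 0.33), and the groups overlapped in both genes. The members with positive changes were Ccne2 (0.19), Ccne1 (0.11), Ccna2 (0.07), Ccnd2 and Aurkb (0.03). Ccnd1 differed by -0.25 (SE 0.16).

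The 2 arrays that stood apart bear on this step. Without both, which leaves 2 arrays in each group, 4 genes were called lower at E15.5: Mcm2 (-0.91, adjusted p = 0.00313), Cdc6 (-0.78, adjusted p = 0.00617), Gins1 (-0.71, adjusted p = 0.0244) and Bub1 (-0.44, adjusted p = 0.0416), and the median became -0.34. The share of all genes given above came from the fit that kept both arrays, so it cannot be set beside this count. The share without them is not given here, so the count does not single out these genes. Mcm2 was at 0.64, 0.38 and -0.62 at E11.5 by the labels, and at 0.58, -0.48 and -0.32 at E15.5.

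Between E15.5 and P0 the cell cycle genes fell together. Of 38 genes, 32 were called lower at P0, against 8.43% of all genes called lower, and none was called higher. The median log2 change was -0.77, compared with -0.01 for all genes tested. All 38 changes were negative, from -1.48 to -0.35, and none of those tested turned positive in any processing alternative run on this step. The arrays of E15.5 and P0 did not overlap in 36 genes (21% of all genes were lower without overlap). No slide held arrays of both times, so age and slide cannot be told apart at this step. The same holds from P0 to P7 and from E11.5 to P7. With slide as a random block, 31 of the 32 calls from E15.5 to P0 held. Whether a fall stands for fewer dividing cells or for less RNA per cell cannot be told apart in bulk tissue, here or in the comparisons that follow.

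All steps of the cycle took part. The fall was called for 6 of 6 mitotic kinase and checkpoint genes, 5 of 5 centromere and chromosome genes, 4 of 4 spindle genes, 2 of 2 genes of nucleotide supply, 9 of 10 replication genes, 3 of 5 G1 genes, 2 of 4 genes of the cyclin and Cdk1 complexes and 1 of 2 mitotic exit genes. Ccnd2 (-0.61, adjusted p = 0.222), E2f1 (-0.37, 0.242), Mcm5 (-0.69, 0.0531), Ccna2 (-0.53, 0.0514), Cdk1 (-0.35, 0.0609) and Cdc20 (-0.60, 0.194) did not pass.

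Aurkb, the kinase of the chromosomal passenger complex, showed the largest fall. It was at 0.36, -0.28 and -0.84 at E15.5 and -1.74, -1.64 and -1.84 at P0 (log2 change -1.48, SE 0.27, adjusted p = 0.00451). The P0 arrays lay close together and below all E15.5 arrays, which were widely spread. Ccne2 fell by 1.31 on the log2 scale (SE 0.20, adjusted p = 0.00191) and Rrm2 by 1.13 (SE 0.17, adjusted p = 0.00149), with the values above. Mcm2, a subunit of the MCM helicase that opens DNA for replication, went from 0.58, -0.48 and -0.32 to -1.24, -1.47 and -1.43 (log2 change -1.31, SE 0.33, adjusted p = 0.0184).

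Cdc6, which loads the helicase on replication origins, went from 0.68, -0.27 and -0.30 to -1.18, -1.37 and -1.20 (log2 change -1.28, SE 0.28, adjusted p = 0.0106). In Mcm2, Cdc6 and Aurkb, E15.5 replicate 1 was the highest array. Aurka, the kinase of the spindle poles, went from 0.25, -0.13 and -0.63 to -1.03, -1.31 and -1.48 (log2 change -1.11, SE 0.29, adjusted p = 0.024), and Kif20a fell by 1.11 (SE 0.20, adjusted p = 0.00419). Ccnd1, cyclin D1 that links growth signals to G1, went from -1.20, -0.81 and -0.55 to -1.54, -1.71 and -1.73 (log2 change -0.81, SE 0.16, adjusted p = 0.00575). Mki67 went from -0.42, -0.28 and -0.04 to -0.72, -1.13 and -0.997 (log2 change -0.70, SE 0.18, adjusted p = 0.0199), and in both genes the groups did not overlap.

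Other genes of the same pathways were taken from lists set beside the 38. Of 36 other replication genes tested (42 listed), 26 were called lower at P0, among them Mcm10 (-1.21), Uhrf1 (-1.12) and Rfc4 (-1.10), and of 51 other mitosis genes 36 were lower, among them Spc24 (-1.09), Cks1b (-1.08) and Fbxo5 (-1.07). None of either list was called higher. Of 10 inhibitors of cyclin-dependent kinases and pocket proteins, which hold cells in G1, 3 were called higher: Cdkn2b (3.75, SE 0.64), Cdkn1a (2.70, SE 0.50) and Rb1 (0.61, SE 0.14). Most calls over all genes at this step were also higher ones (share below), so this count does not set the list apart. Cdkn2b was at -3.86, -1.54 and -1.87 at E15.5 and 1.42, 1.31 and 1.26 at P0, so the groups did not overlap. Of 9 other G1 cyclins and kinases, Ccng2 (0.84) and Cdk6 (0.38) were higher, and of 14 other cell cycle transcription factors E2f6 (-0.71) and E2f7 (-0.67) were lower.

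Without both arrays that stood apart, 32 genes were called from E15.5 to P0 (median -0.68). The count fell to 17 without P0 replicate 2 and to 16 without P0 replicate 3, and 14 genes were called whichever array was left out, namely Aurkb, Birc5, Bub1, Ccnb1, Ccnd1, Ccne1, Ccne2, Cdc6, Gins1, Kif20a, Mcm6, Pcna, Rrm2 and Ube2c. Over all genes, 57.3% of calls were higher at P0, but 40.3% with median centring in place of loess, under which 35 of the 38 were lower. Markers of other cell types moved at the same step: striated muscle markers, 6 of 8 called higher, summed to 3070 to 47590 units of Cy5 intensity at E15.5 (25590 to 47590 without E15.5 replicate 1) and 256214 to 400354 at P0, and suprabasal squamous markers, 3 of 9 called higher, to 21679 to 34107 and 224839 to 291413. Their part in the result was not tested.

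From P0 to P7, 2 of 38 genes were called, both higher at P7, and 5 had an unadjusted p under 0.05. Ccnd1 rose by 1.23 (SE 0.16, adjusted p = 0.00249), from -1.54, -1.71 and -1.73 at P0 to -0.42, -0.47 and -0.39 at P7, where its 3 arrays lay above all arrays of the earlier times but 1, E11.5 replicate 2. Rrm2 rose by 0.79 (SE 0.17, adjusted p = 0.0375). These 2 genes of 38 compare with 1.46% of all genes called higher and 0.979% called lower. The median change was 0.07, with 21 genes higher and 17 lower. Kif20a (-0.39, adjusted p = 0.431), Plk1 (-0.35, adjusted p = 0.467) and Ccnb2 (-0.32, adjusted p = 0.349), a B-type cyclin, had the largest negative values. Ccnd2 (0.33, SE 0.33) and Mki67 (0.19, SE 0.18, but -0.05 with median centring) were not called.

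The call of Rrm2 depended on single arrays: the count was 1, Ccnd1, without any of P0 replicates 1, 2 or 3, P7 replicates 1 or 2, E11.5 replicate 1 or E15.5 replicates 2 or 3. Over all genes, 59.8% of calls were higher, against 42.9% when arrays were centred on the median, 49.0% from processed signals, 47.8% from the deposited ratios and 71.6% with each spot's own local background. Among the other lists, Ckap2l (0.65) and Cdkn3 (0.53), both genes of mitosis, were higher at P7 and Gins4 (-1.07), a subunit of the replicative helicase, was lower.

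Over the whole metaplasia phase, from E11.5 to P7, 32 of 38 genes fell, against 13.3% of all genes called lower. The median was -0.92, the range was from -1.58 for Kif20a to 0.18 for Ccnd1 (-0.09 with median centring), and the groups did not overlap in 34 genes that were lower at P7 (21% of all genes). The fall was called for 10 of 10 replication genes, 4 of 4 genes of the cyclin and Cdk1 complexes, 5 of 5 centromere and chromosome genes, 2 of 2 mitotic exit genes, 5 of 6 mitotic kinase and checkpoint genes, 3 of 4 spindle genes, 1 of 2 genes of nucleotide supply and 2 of 5 G1 genes. Besides Kif20a (SE 0.20, adjusted p = 0.000416), the largest were Aurka (-1.45, SE 0.29), Gins1 (-1.43, SE 0.23), a subunit of the GINS complex of the helicase, Aurkb (-1.34, SE 0.27), Plk1 (-1.31, SE 0.19) and Mcm2 (-1.30, SE 0.33).

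Aurka was at 0.42, 0.39 and -0.49 at E11.5 and -1.36, -1.001 and -1.69 at P7. Gins1 was at 0.19, 0.01 and -0.34 at E11.5 and -1.37, -1.66 and -1.39 at P7. Neither overlapped between the times, and E11.5 replicate 3 was the lowest of its group in both. Mki67 fell by 0.59 (SE 0.18, adjusted p = 0.0296), Ccnd2 differed by -0.24 (SE 0.33, adjusted p = 0.62), and Ccnd1, at -0.66, -0.43 and -0.72 and then -0.42, -0.47 and -0.39, had an adjusted p of 0.422. The calls numbered 26 to 32 when single arrays were left out, with 25 genes called each time, and 33 (median -1.05) without both arrays that stood apart. Over all genes, 55.8% of calls were higher at P7, but 36.3% with median centring.

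Of 36 other replication genes, 28 were lower at P7 than at E11.5 (Mcm10 -1.33, Gins2 -1.23, Gins4 -1.22), and of 51 other mitosis genes 38 (Cks1b -1.33, Cenpe -1.24, Fbxo5 -1.18). Cdkn2b (2.79) and Cdkn1a (2.08) were higher. Among the other G1 genes, Ccng1 (1.18) was higher and Cdk4 (-1.20), Ccnh (-0.62) and Cdk7 (-0.35) were lower, and among the transcription factors E2f5 (-0.93), Mybl2 (-0.68) and E2f7 (-0.58, but 0.23 without outlier spots) were lower.

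**Figure D3:**
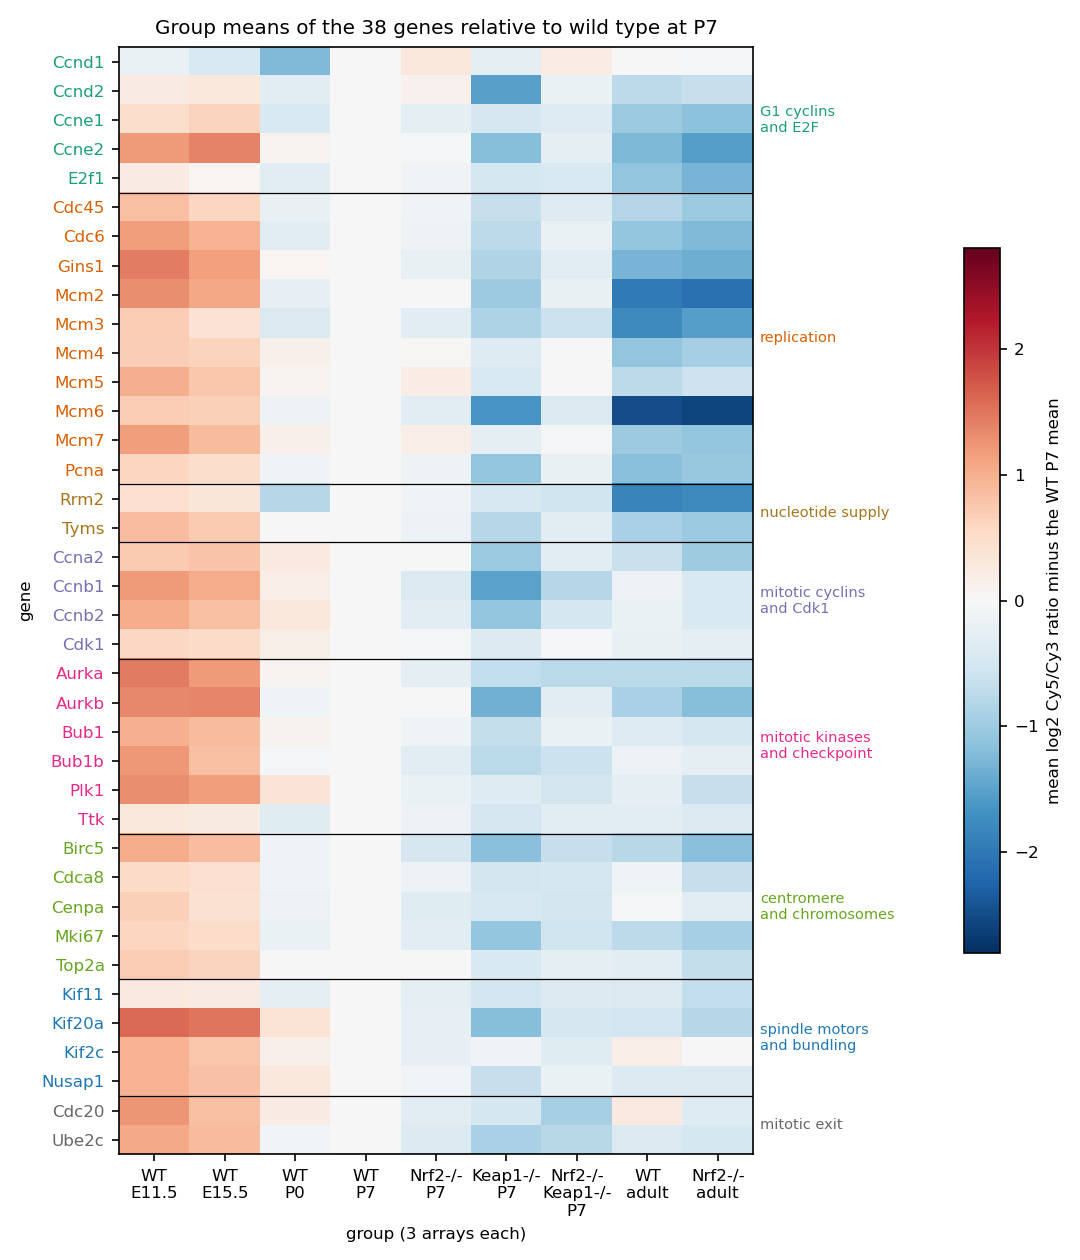
Mean log2 Cy5/Cy3 of each of the 38 genes in 9 groups minus its mean in wild-type esophagus at P7, in colour, with genes ordered by the step they serve. Embryonic columns are above P7 for most genes, the adult columns are lowest in the replication rows (below P7 for all 10 genes in wild type, except that Cdc45 is above it with each spot's own local background), and the Keap1-/- column is below P7 for all 38 genes, 6 of which are above it with median centring.

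In the maturation phase, wild type went from whole esophagus at P7 to epithelium at 8 weeks. Every replication gene fell, whereas neither of the 2 mitotic exit genes was called in the fit reported. With scan as a fixed block, 1 of them, Ube2c, was called lower (-0.495, adjusted p = 0.0418). Of the 38, 24 were called lower in the adult, against 23% of all genes called lower, and none higher. The median log2 change was -0.73, against 0.01 for all genes. The fall was called for 10 of 10 replication genes (median -1.15), 2 of 2 genes of nucleotide supply and 4 of 5 G1 genes, and for 3 of 6 mitotic kinase and checkpoint genes (median -0.32), 2 of 5 centromere and chromosome genes, 2 of 4 spindle genes, 1 of 4 genes of the cyclin and Cdk1 complexes and 0 of 2 mitotic exit genes. Directions of called genes held in the alternatives run, except that Cdc45 and Kif11 were higher (0.55 and 0.66) with each spot's own local background. Age, tissue and slide cannot be told apart in this comparison, as no slide held arrays of both ages. Adult replicate 3 was also read in another scan and with the later Feature Extraction version. With slide as a random block the 24 calls held, and with scan as a fixed block 22 of them did.

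Mcm6, a subunit of the MCM helicase, showed the largest fall of the 38. It was at -0.47, -0.44 and -0.48 at P7 and -2.87, -3.02 and -2.98 in the adult (log2 change -2.49, SE 0.11, adjusted p = 1.03e-05). The groups lay far apart, with little spread in either. Mcm2 went from -1.16, -1.07 and -1.26 to -3.28, -2.97 and -3.21 (log2 change -1.99, SE 0.13, adjusted p = 5.21e-05), and Mcm3, a further subunit, from -0.80, -0.89 and -0.68 to -2.67, -2.36 and -2.66 (log2 change -1.77, SE 0.14, adjusted p = 0.000102). Rrm2 went from -0.43, -0.49 and -1.03 to -2.61, -2.53 and -2.39 (log2 change -1.86, SE 0.18, adjusted p = 0.000273). None of these overlapped between the ages, as held for 28 of the 38 genes (28.7% of all genes were lower without overlap).

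Gins1 fell to -2.87, -2.63 and -2.81 (log2 change -1.30, SE 0.14, adjusted p = 0.000361) and Ccne2 to -1.86, -1.72 and -2.39 (log2 change -1.26, SE 0.25, adjusted p = 0.00557). Among the genes of mitosis, Ccnb1 was at -1.09, -1.27 and -1.36 at P7 and -1.53, -1.25 and -1.42 in the adult (log2 change -0.16, SE 0.13, adjusted p = 0.368). Cdc20, the activator of the anaphase-promoting complex, was at -1.11, -0.54 and -1.38 and then -1.21, -0.77 and -0.24 (log2 change 0.27, SE 0.29, adjusted p = 0.493). Kif2c, a kinesin that takes microtubules apart at the centromere, was at -1.38, -1.45 and -1.67 and then -1.55, -1.29 and -1.09 (0.18, SE 0.16, adjusted p = 0.378). Both ages overlapped in these 3 genes, which held no call in either direction.

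Mki67 fell by 0.73 (SE 0.22, adjusted p = 0.0295), from -0.49, -0.71 and -1.07 to -1.75, -1.61 and -1.11, and Ccnd2 by 0.73 (SE 0.23, adjusted p = 0.0377), from 1.34, 1.06 and 1.58 to 0.12, 0.81 and 0.85. Ccnd1 was at -0.42, -0.47 and -0.39 and then -0.70, -0.12 and -0.48 (log2 change -0.01, SE 0.16, and 0.25 with median centring). Its adjusted p of 0.968 does not show equal levels.

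Of 36 other replication genes, 29 were lower in the adult (Uhrf1 -1.97, Chaf1b -1.77, Cdt1 -1.63) and 1, Chaf1a (0.60), was higher, whereas 18 of 51 other mitosis genes were lower (Spc25 -1.34, Cks1b -1.31, Sgol1 -0.95). Of the inhibitors, Cdkn2c (1.26) and Cdkn1a (1.18) were higher and Cdkn1c (-4.46, SE 0.16) was lower. Higher calls were frequent over all genes too (share of calls below). Of the transcription factors, Myc (0.88) was higher and 5 were lower, among them E2f2 (-1.40), E2f7 (-1.23) and Mycn, whose probe was not well above background on any adult array. Of the G1 genes 5 of 9 were lower, led by Ccnd3 (-1.58), Ccng2 (-1.27) and Ccng1 (-0.94).

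Over all genes, 46.5% of calls were higher in the adult, but 27.15% with each spot's own local background, under which 12 of the 38 genes were called. The count was 11 with median centring and 16 to 24 when single arrays were left out, with 16 genes called each time: all 10 replication genes, Rrm2, Tyms, Ccne1, Ccne2, E2f1 and Aurkb. Markers of the layers under the epithelium moved at this step, and their part in the result was not tested. Striated muscle markers, 8 of 8 lower, summed to 234483 to 922205 units of Cy5 intensity at P7 and 7885 to 19799 in the adult, fibroblast and mesenchyme markers, 7 of 7 lower, to 362531 to 443235 and 54268 to 109295, and smooth muscle markers, 4 of 6 lower, to 360056 to 647473 and 175568 to 202704.

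**Figure D4:**
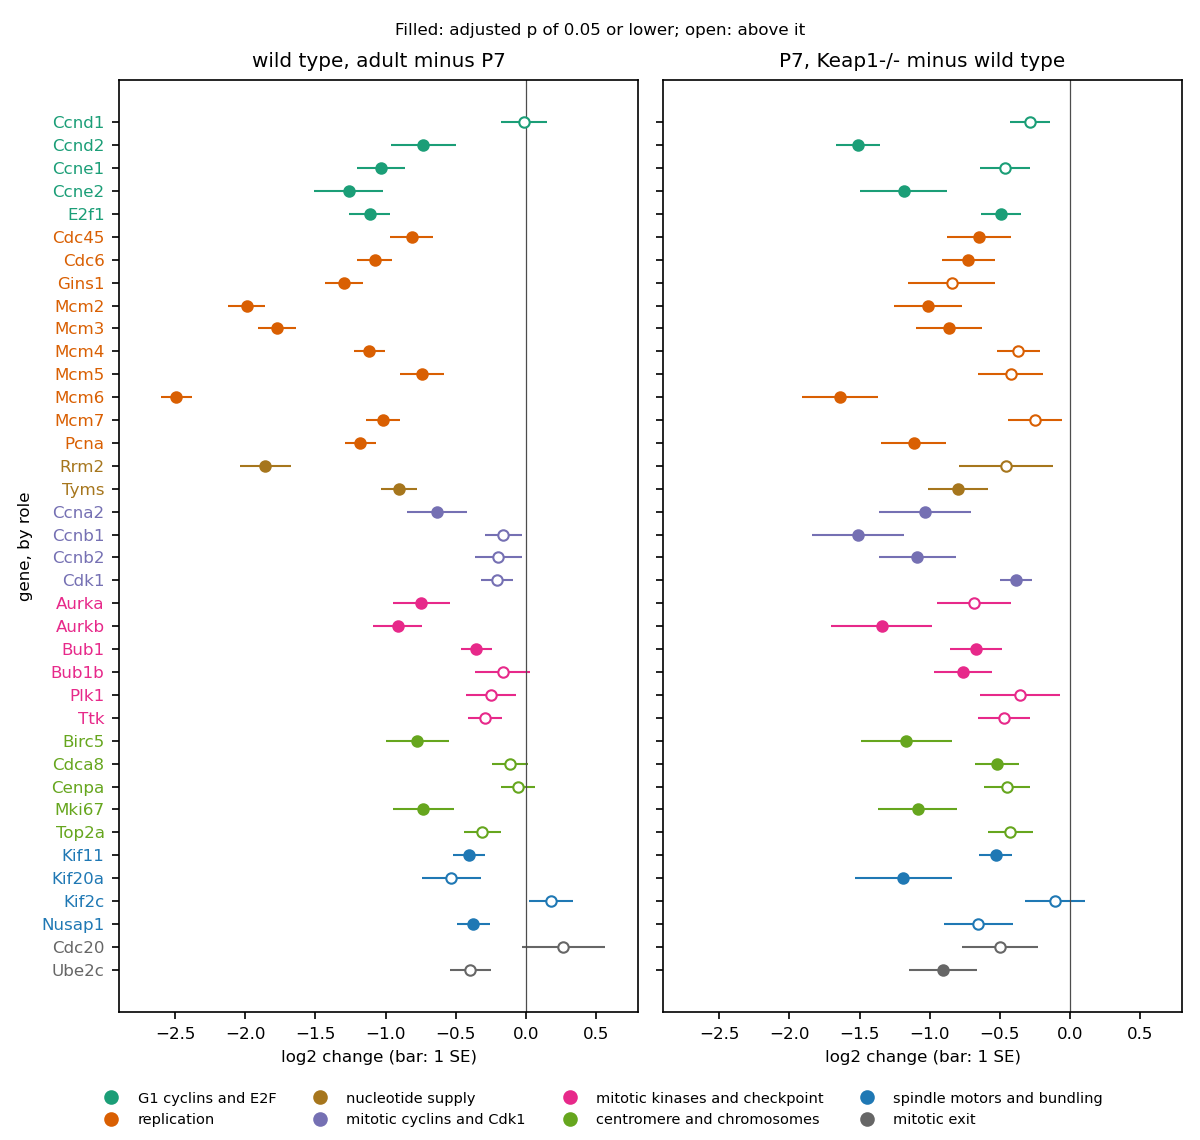
Log2 change with 1 SE of each of the 38 genes from P7 to adult in wild type and in Keap1-/- against wild type at P7, with filled points for an adjusted p of at most 0.05. In the adult comparison all 10 replication genes are called lower, with Cdc45 higher if each spot's own local background is used, and in the Keap1-/- comparison all 38 values are below 0, with 6 above 0 if median centring is used.

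The same step in Nrf2-/- mice asked whether the loss of Nrf2 altered it. Of 38 genes, 29 were called lower in the adult (28% of all genes called lower), with a median of -0.69. The calls took in 10 of 10 replication genes, 5 of 5 G1 genes, 2 of 2 genes of nucleotide supply, 4 of 6 mitotic kinase and checkpoint genes, 4 of 5 centromere and chromosome genes, 3 of 4 spindle genes, 1 of 4 genes of the cyclin and Cdk1 complexes and 0 of 2 mitotic exit genes. With median centring, which moved the median of all genes to 0.27, these directions did not all hold: 9 genes were lower, 5 were higher, and 11 of the 29 turned sign (Aurka, Birc5, Bub1, Ccnd1, Ccnd2, Kif20a, Mcm5, Mki67, Nusap1, Pcna and Plk1). Over all genes, 49.2% of calls were higher in the adult, but 69.4% with median centring.

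The tissue changed here too, from whole esophagus to epithelium, so age and tissue cannot be told apart. The P7 arrays were read with the earlier of the Feature Extraction versions and the adult arrays, on other slides and in other scans, with the later one. With scan as a fixed block, 20 of the 29 were called. Fibroblast and mesenchyme markers, 7 of 7 lower, summed to 416259 to 453162 units of Cy5 intensity at P7 and 83690 to 131950 in the adult, smooth muscle markers, 6 of 6 lower, to 247407 to 470595 and 152906 to 165537, and striated muscle markers, 6 of 8 lower, to 842127 to 952509 and 17513 to 60839. Their part in the result was not tested.

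Mcm6 was at -0.99, -0.69 and -0.70 in Nrf2-/- at P7 and -3.15, -3.01 and -2.91 in the adult (log2 change -2.23, SE 0.11, adjusted p = 7.44e-08). Mcm2 went from -1.27, -1.14 and -1.04 to -3.28, -3.14 and -3.35 (log2 change -2.11, SE 0.11, adjusted p = 1.62e-07), and Rrm2 from -1.15, -0.70 and -0.37 to -2.47, -2.60 and -2.23 (log2 change -1.69, SE 0.21, adjusted p = 4.82e-05). Ages were far apart in all 3. Ccne2 (-1.50, SE 0.25), Mcm7 (-1.28, SE 0.11) and Mcm3 (-1.22, SE 0.17) followed. Kif2c (0.22, SE 0.15), Bub1b (0.03, SE 0.17), a checkpoint kinase, and Cenpa (0.01, SE 0.13), the centromeric histone, had positive values without a call. Mki67 (-0.63), Ccnd2 (-0.76) and Ccnd1 (-0.36) were called lower, and each was above 0 with median centring (0.36, 0.26 and 0.52).

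Among the other lists, 30 of 36 replication genes and 24 of 51 mitosis genes were lower in adult Nrf2-/- epithelium. The largest falls were those of Uhrf1 (-1.95), Cdt1 (-1.91) and Chaf1b (-1.50) in replication and of Cks1b (-1.73), Cenpi (-1.18) and Smc2 (-1.12) in mitosis, while Chaf1a (0.56) and Cdc25b (0.49) were higher. Of the G1 genes, Ccnd3 (-1.67), Ccng1 (-1.08) and Cdk6 (-0.86) were lower, and E2f7 (-1.54) and E2f2 (-1.40) were among 8 transcription factors that were lower. Cdkn2c (1.54), Cdkn1a (0.97) and Myc (1.45) were higher and Cdkn1c (-4.73) was lower.

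The interaction of age and genotype was not called for any of the 38 genes, against 0.098% of all genes. Mcm3 had the lowest unadjusted p and was the only gene with one under 0.05 (difference of log2 changes 0.55, SE 0.24, adjusted p = 0.43): its change was -1.77 in wild type and -1.22 in Nrf2-/-. Ccnd1 differed by -0.35 (adjusted p = 0.5), Ccnd2 by -0.03 and Mki67 by 0.09. The groups of this test shared no slide, and the adult genotypes differed in most of their scans. With scan as a fixed block, which rests on wild-type adult replicate 3, 18 of the 38 differences turned sign and none was called.

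Loss of Nrf2 by itself gave no calls. The Nrf2-/- and wild-type arrays of P7 shared no slide, so genotype and slide cannot be told apart there. At P7, 0 of 38 genes differed between Nrf2-/- and wild type by limma, against 0.0157% of all genes, with a median of -0.17, 1 gene at an unadjusted p under 0.05 and a lowest adjusted p of 0.46 (Kif11, -0.27, SE 0.12). Ccnd1 was at -0.13, -0.16 and -0.04 in Nrf2-/- and -0.42, -0.47 and -0.39 in wild type (difference 0.32, SE 0.14, adjusted p = 0.467), without overlap. Ccnd2 differed by 0.12 (SE 0.16), Mki67 by -0.29 (SE 0.28), Mcm5 by 0.21 (SE 0.23) and Mcm7 by 0.18 (SE 0.19, but -0.01 with Feature Extraction's processed signals).

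In adult epithelium, 0 of 38 genes differed by limma (0.499% of all genes), with a median of -0.15, 2 genes at an unadjusted p under 0.05 and a lowest adjusted p of 0.235 (Cdca8, -0.54, SE 0.19). The adult genotypes shared no slide, so genotype and slide cannot be told apart. Only wild-type replicate 3 shared a scan and a Feature Extraction version with Nrf2-/- arrays. With median centring the median of the 38 was 0.38 and that of all genes 0.40, so the direction here rested on the scaling. Ccnd1 (-0.03, SE 0.16), Ccnd2 (0.09, SE 0.28), Mki67 (-0.19, SE 0.18), Mcm3 (0.23, SE 0.14), Mcm4 (0.18, SE 0.11) and Mcm5 (0.16, SE 0.12) had no call.

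Loss of Keap1 at P7 went with lower levels of the cell cycle genes. In Keap1-/- esophagi, 23 of 38 genes were called lower than in wild type (18% of all genes called lower) and none higher, with a median of -0.67 against -0.02 for all genes. All 38 differences, averaged over probes, were below 0 in the fit reported, and with median centring 6 uncalled genes were above it and 8 were called. In 5 genes the probes disagreed in sign. The calls took in 4 of 4 genes of the cyclin and Cdk1 complexes, 6 of 10 replication genes, 3 of 5 G1 genes, 3 of 6 mitotic kinase and checkpoint genes, 3 of 5 centromere and chromosome genes, 2 of 4 spindle genes, 1 of 2 mitotic exit genes and 1 of 2 genes of nucleotide supply. In 22 genes the Keap1-/- arrays lay below all wild-type arrays (24.4% of all genes).

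Ccnd2 differed by the smallest adjusted p. It was at 0.05, -0.27 and -0.34 in Keap1-/- and 1.34, 1.06 and 1.58 in wild type (difference -1.51, SE 0.16, adjusted p = 6.21e-05). The Keap1-/- arrays were the lowest of all 27 arrays for this gene. Mcm6 was at -1.43, -2.38 and -2.51 against -0.47, -0.44 and -0.48 (difference -1.64, SE 0.27, adjusted p = 0.00119), and Ccnb1 at -1.74, -3.26 and -3.24 against -1.09, -1.27 and -1.36 (difference -1.51, SE 0.33, adjusted p = 0.00557). In both, replicate 1 was nearer to wild type than replicates 2 and 3, and the groups did not overlap.

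Aurkb was at -1.98, -3.33 and -3.58 against -1.74, -1.32 and -1.81 (difference -1.34, SE 0.36, adjusted p = 0.0158). Kif20a was at -1.36, -2.86 and -2.79 against -1.07, -0.93 and -1.46 (difference -1.19, SE 0.35, adjusted p = 0.0225), where replicate 1 fell within the wild-type range. Ccne2 was at -1.43, -2.18 and -2.13 against -0.44, -1.18 and -0.56 (difference -1.18, SE 0.31, adjusted p = 0.0142). Mki67 was at -1.04, -2.26 and -2.23 against -0.49, -0.71 and -1.07 (difference -1.09, SE 0.28, adjusted p = 0.0133), again with replicate 1 inside the wild-type range. Ccnd1, at -0.39, -0.91 and -0.82, was not called (-0.28, SE 0.14, adjusted p = 0.155, and 0.15 with median centring).

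Replicate 1 stood apart within the Keap1-/- group. Relative to the mean of each gene over all arrays, the median of the 38 genes was -0.02 on replicate 1, -0.92 on replicate 2 and -0.84 on replicate 3, compared with 0.03 to 0.20 on the wild-type arrays. Without replicate 1, 37 of 38 genes were called lower, whereas 6 were called without replicate 2 and 7 without replicate 3. The share of all genes called in these runs is not given here, so the counts do not single out these genes. Ccnb1, Ccnd2, Kif11, Mcm2, Mcm6 and Pcna were called whichever array was left out. The 3 Keap1-/- arrays shared 1 slide and 1 scan that held no other group, so genotype, slide and scan cannot be told apart.

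Among the other lists, 22 of 36 replication genes were lower in Keap1-/- (Rfc4 -1.52, Prim2 -1.40, Gins2 -1.38) and 33 of 51 mitosis genes (Prc1 -1.74, Sgol1 -1.62, Spc25 -1.57), while Chaf1a (1.44) and Cdc25a (0.50) were higher. Cdkn1a, an inhibitor of cyclin-dependent kinases, was higher by 1.42 (SE 0.24). Cdkn2a was higher by 0.72 but lower by 0.11 with Feature Extraction's processed signals, and Cdkn1c was lower by 0.42 but higher by 0.06 with median centring. Foxm1, a factor that drives mitotic genes, was lower (-0.71), as was E2f8 (-0.55), and Lin54 (-0.32) was above 0 with the processed signals (0.13). Myc (0.58) was higher, and Ccng2 (-1.29), Ccnc (-0.52) and Ccnh (-0.34) were lower. Over all genes, 46.1% of calls were higher in Keap1-/-, but 65.9% with median centring, which moved the median of all genes to 0.11.

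Markers of other cell types also differed in Keap1-/- esophagi, and their part in the result was not tested. Fibroblast and mesenchyme markers, 6 of 7 called lower, summed to 138123 to 198957 units of Cy5 intensity against 362531 to 443235 in wild type, and smooth muscle markers, 5 of 6 lower and 1 higher, to 108055 to 183078 against 360056 to 647473. Ciliated and columnar epithelium markers, 3 of 6 lower, summed to 11618 to 15006 against 163026 to 264538. Basal squamous markers, 1 of 8 higher and 1 lower, summed to 579433 to 720015 against 712369 to 938775. Suprabasal squamous markers, 2 of 9 higher and 1 lower, summed to 414431, 1030554 and 1233529 on Keap1-/- replicates 1, 2 and 3 against 282001 to 585105. Leukocyte markers, 3 of 5 tested lower, summed to 19928, 7933 and 7544 on the same arrays against 16798 to 18621. In both lists replicate 1 stood apart from replicates 2 and 3, as it did for the cell cycle genes.

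In Nrf2-/-Keap1-/- esophagi, 35 of 38 genes lay below wild type and 32 above Keap1-/-. Against wild type, 0 of 38 genes were called by limma (0.43% of all genes), with a median of -0.36 (16 genes lower without overlap, against 9.95% of all genes), 10 genes at an unadjusted p under 0.05 and a lowest adjusted p of 0.134 (Cdc20, -0.92, SE 0.27). Without Keap1-/- replicate 1, which enters this fit through the shared estimate of the spread, Ccnb1 (-0.79, adjusted p = 0.0385) and Ube2c (-0.79, adjusted p = 0.0441) were called. Ccnd1 (0.21, SE 0.14), Ccnd2 (-0.18, SE 0.16, but 0.19 with median centring), Mki67 (-0.56, SE 0.28), Mcm4 (0.01, SE 0.15) and Mcm5 (0.01, SE 0.23) had no call.

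Against Keap1-/-, 9 of 38 genes were called higher in Nrf2-/-Keap1-/- (18.2% of all genes called higher), with a median of 0.40. Ccnd2 was at 1.24, 1.13 and 1.06 in Nrf2-/-Keap1-/- against 0.05, -0.27 and -0.34 (difference 1.33, SE 0.16, adjusted p = 0.000153), with the groups far apart. Mcm6 was at -0.39, -1.21 and -1.03 against -1.43, -2.38 and -2.51 (difference 1.23, SE 0.27, adjusted p = 0.00595), also without overlap. Aurkb was at -1.47, -1.99 and -2.30 against -1.98, -3.33 and -3.58 (difference 1.04, SE 0.36, adjusted p = 0.0459), Ccne2 at -0.28, -1.29 and -1.39 against -1.43, -2.18 and -2.13 (0.93, SE 0.31, adjusted p = 0.0409), Pcna at -0.72, -1.32 and -1.55 against -1.67, -2.34 and -2.29 (0.90, SE 0.23, adjusted p = 0.0132) and Mcm2 at -1.16, -1.33 and -1.61 against -1.48, -2.61 and -2.43 (0.81, SE 0.24, adjusted p = 0.0258).

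Of these, Aurkb and Mcm2 overlapped, through Keap1-/- replicate 1, and 5 of the 38 genes were higher without overlap (26.5% of all genes). Cdc6 (0.54), Ccnd1 (0.49) and Cdk1 (0.33), the catalytic partner of the mitotic cyclins, completed the 9. Cdc20 was at -1.90, -1.84 and -2.05 in Nrf2-/-Keap1-/- against -0.83, -1.97 and -1.73 (difference -0.42, adjusted p = 0.262), and was called lower (-0.58, adjusted p = 0.0431) with median centring, under which 6 genes were called higher, 5 of the 9 and Mcm4 (0.46, adjusted p = 0.048). Kif2c (-0.24, SE 0.21) and Plk1 (-0.16, SE 0.29, but 0.05 with Feature Extraction's processed signals) had values below 0, and Mki67 (0.52, SE 0.28) had no call.

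The count of 9 rested on the Keap1-/- arrays: it was 22 without replicate 1, and 2 without either of the others, Ccnd2 and Mcm6, which were called whichever array was left out. It was 3 without Nrf2-/-Keap1-/- replicate 1 and 5 without replicate 2. These counts too are given without the share of all genes called in the same runs. With replicate number as a block, which pairs the samples here, 7 of the 9 were called, without Cdc6 (adjusted p = 0.0529) and Cdk1 (adjusted p = 0.0665). Of 36 other replication genes 13 were higher in Nrf2-/-Keap1-/- and 3 lower, and of 51 other mitosis genes 7 were higher, beside the 18.2% of all genes called higher. The largest rises were those of Prim1 (1.34), Prim2 (1.09) and Rfc4 (1.06) in replication and of Sgol1 (1.06), Prc1 (1.05) and Smc4 (0.97) in mitosis, and Chaf1a (-2.12), Pold2 (-0.43) and Dbf4 (-0.39) were lower. Cdkn1a (-1.23), Myc (-0.67) and Cdk6 (-0.38) were lower, as was Cdkn2a (-0.91, but 0.06 with the processed signals), and Ccng2 (1.51), Ccnh (0.53), E2f8 (0.58), Cdkn2c (0.45) and Cdkn1b (0.35) were higher. Fibroblast and mesenchyme markers, 6 of 7 called higher, summed to 369049 to 426009 units of Cy5 intensity in Nrf2-/-Keap1-/-, and ciliated and columnar markers, 3 of 6 higher, to 160098 to 200409, against the Keap1-/- ranges above. Smooth muscle markers, 0 of 6 higher and 1 lower, summed to 177201 to 340471, and of 8 basal squamous markers 1 was higher and 2 were lower. The part of these markers in the result was not tested. These comparisons share the Keap1-/- and wild-type arrays. The Nrf2-/-Keap1-/- arrays shared no slide with either group, so genotype and slide cannot be told apart here. Nor can genotype and scan in the comparison with Keap1-/-.

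Set in order over the 9 groups, 32 of the 38 genes had their highest mean at E11.5, 5 at E15.5 and 1, Ccnd1, in Nrf2-/- at P7. The lowest mean was in adult Nrf2-/- epithelium for 16, in Keap1-/- at P7 for 13, in adult wild-type epithelium for 5, in Nrf2-/-Keap1-/- at P7 for 3 and at P0 for 1. E11.5 and E15.5 gave no call (4 without both arrays that stood apart), nor did adult Nrf2-/- against adult wild-type epithelium, and neither adult group was compared with Keap1-/-. The counts of highest means include both arrays that stood apart.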

How the data were processed

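RNA of 27 esophagus samples, 3 for each of 9 groups taken from the sample titles, was hybridized on 2-colour Agilent arrays (Cy5, sample; Cy3, reference). The authors deposited scanner files with spot intensity values from Agilent Feature Extraction (10.5.1.1 or 10.7.3.1 in the file headers), and a separate matrix of deposited log10 ratio values (Cy5 over Cy3). Columns of per-sample values that were not used numbered 0.

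Intensities were background-corrected (normexp, offset 50) and normalized within arrays (loess, control spots at weight 0) in limma 3.58.1 (R 4.3.3, statmod 1.5.0). Outlier-marked spots were kept. Where a spot's local background exceeded the median of its array by more than 5-fold, the median was used in the correction. The ratio of such a spot was then left out. Spots were averaged to 41174 probes and then to genes on the log2 scale. A gene was tested if any of its probes was marked well above background in Cy5 by 3 or more arrays in the fit, with lmFit and eBayes, two-sided, and p-values adjusted by Benjamini-Hochberg over all genes tested. The fits held the 12 wild-type arrays from E11.5 to P7, the 12 arrays of P7, the 6 wild-type arrays of P7 and adult, the 12 wild-type and Nrf2-/- arrays of both ages, and the 6 adult arrays. The number of arrays limits the precision. The scripts were tested on simulated data.

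Genes named were, for each comparison, up to 6 called genes with the largest change and up to 3 that moved against most, with Ccnd1, Ccnd2, Mki67, the gene of each step with the largest F, and up to 3 called genes in each direction from each pathway list; other names were chosen after their values were seen. The 38 genes and the lists were chosen with earlier results of these data known. Alternatives were no background subtraction, processed signals, the deposited ratios, median centring, no filter on dim probes, outlier spots left out, each spot's own local background, 1 fit over all arrays, blocks for replicate number, slide and scan, and each array left out. The restriction to probes above background on at least 14 arrays was chosen after seeing the data. Significance analysis of microarrays was not run. Replicate numbers went with correlated deviations in every pair from P0 to P7 (0.10 to 0.33), from E11.5 to P7 (0.11 to 0.18) and between Nrf2-/-Keap1-/- and Keap1-/- (0.10 to 0.32), and in no other comparison did every pair exceed 0.1.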

Additional observations from a re-analysis of the deposited data

How the results depend on the processing

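Of 153 counts of called genes under other settings, 134 stayed within 1.5 times the reported count, and of 2331 changes of named genes 2128 kept their direction and side of the threshold, 131 were no longer called, 6 became called and 66 turned sign. With an array left out, 125 of 144 counts and 2036 of 2289 changes held, and 216 changes were no longer called. The causes were not tested, except that fewer genes of the 38 could be tested without outlier spots.

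The count from P0 to P7 was 1 with the processed signals, the deposited ratios, median centring, outlier spots left out, each spot's own local background, all 27 arrays in 1 fit and slide as a random block. Median centring gave counts of 8 (Keap1-/- against wild type), 11 (wild-type adult) and 14 (Nrf2-/- adult). Leaving outlier spots out gave 12 (E15.5 to P0), 12 (E11.5 to P7), 16 (among the 4 times), 15 (Keap1-/-), 15 (wild-type adult) and 19 (Nrf2-/- adult). Each spot's own local background gave 12 for the wild-type adult, and no filter on dim probes gave 5 between Nrf2-/-Keap1-/- and Keap1-/-. Without E11.5 replicate 3 and E15.5 replicate 1, the count from E11.5 to E15.5 was 4.

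Log2 changes that turned sign were, with no background subtraction, Cenpa (-0.050, Nrf2-/- adult). With processed signals they were Ccnd2 (-0.039) and Mcm7 (-0.0072) for Nrf2-/- at P7, Cdkn2a (-0.11) and Lin54 (0.13) for Keap1-/-, Mcm4 (-0.24, and -0.063 with the deposited ratios) and Mcm5 (-0.020) for Nrf2-/-Keap1-/- against wild type, Plk1 (0.051) and Cdkn2a (0.056, and 0.066) against Keap1-/-, Ccnd1 (0.025, and 0.022, wild-type adult), Bub1b (-0.13, Nrf2-/- adult), Mki67 (-0.18, age by genotype) and Ccnd2 (-0.21) and Mcm5 (-0.13) between adult genotypes. Second values are those with the deposited ratios, which otherwise gave the same values to the digits printed. With median centring they were Mki67 (0.059, E11.5 to E15.5, and -0.045, P0 to P7), Ccnd1 (-0.089, E11.5 to P7), Ccnd1 (0.15) and Cdkn1c (0.057) for Keap1-/-, Ccnd2 (0.19, Nrf2-/-Keap1-/- against wild type), Ccnd1 (0.25, wild-type adult), Ccnd1 (0.52), Ccnd2 (0.26) and Mki67 (0.36) for the Nrf2-/- adult, Ccnd1 (0.26) and Ccnd2 (0.61) for age by genotype, and Ccnd1 (0.70) and Mki67 (0.55) between adult genotypes.

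Without outlier spots they were Ccnd2 (-0.20) and Ccne1 (-0.037) from E11.5 to E15.5, E2f7 (0.23, E11.5 to P7), Ccnd2 (-0.087, Nrf2-/- at P7), Ccnd1 (0.013, wild-type adult), Mki67 (-0.28, age by genotype), and Ccnd2 (-0.10) and Mcm4 (-0.26) between adult genotypes. With own local background they were Ccnd2 (0.15, age by genotype) and Ccnd1 (0.078) and Mcm3 (-0.43) between adult genotypes, and with probes above background on at least 14 arrays Mcm4 (-0.011) and Cenpa (-0.16). With slide as a fixed block they were Ccna2 (-0.11) and Ccnd2 (-0.42) from E11.5 to E15.5, resting on the slide whose only E15.5 array was replicate 1, and as a random block Mcm4 (-0.0062), Mcm5 (-0.00067) and, between adult genotypes, Ccnd2 (-0.016). With scan as a fixed block they were Ccnd1 (0.014, wild-type adult, and 0.017, adult genotypes), Bub1b (-0.33), Cenpa (-0.078) and Kif2c (-0.22) for the Nrf2-/- adult and Mki67 (-0.21, age by genotype). Without both embryonic arrays the change of Mki67 from E11.5 to E15.5 was 0.031.

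With an array left out, counts ranged from 1 to 2 (P0 to P7), 16 to 34 (E15.5 to P0), 6 to 37 (Keap1-/-), 0 to 2 and 2 to 22 (Nrf2-/-Keap1-/- against wild type and Keap1-/-). They are given without the share of all genes called in each run. From E11.5 to E15.5, Mki67 ranged from -0.18 to 0.0043, Ccna2 from -0.063 to 0.18, Ccnd2 from -0.35 to 0.28 and Ccne1 from -0.027 to 0.21. Ccnd2 ranged from -0.014 to 0.24 for Nrf2-/- at P7, Mcm4 from -0.18 to 0.13 and Mcm5 from -0.17 to 0.24 for Nrf2-/-Keap1-/- against wild type, and Kif2c from -0.40 to 0.066 and Plk1 from -0.38 to 0.24 against Keap1-/-. Ccnd1 ranged from -0.17 to 0.13 for the wild-type adult, Bub1b from -0.077 to 0.10 and Cenpa from -0.091 to 0.11 for the Nrf2-/- adult, Mki67 from -0.040 to 0.28 and Ccnd2 from -0.27 to 0.23 for age by genotype, and Ccnd2 from -0.15 to 0.34 and Ccnd1 from -0.17 to 0.13 between adult genotypes.

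With the replicate block the counts were 33 (E15.5 to P0), 2 (P0 to P7), 33 (E11.5 to P7), 36 (among the 4 times), 25 (Keap1-/-), 7 (Nrf2-/-Keap1-/- against Keap1-/-), 18 (wild-type adult), 29 (Nrf2-/- adult) and 0 elsewhere, none over 1.5 times from the reported count. A scan block was not fitted for the time course, whose arrays all shared 1 scan, nor a scan block for either comparison with Keap1-/- or a slide block for Keap1-/- against wild type, as Keap1-/- had a scan and a slide of its own. Dim probes limit the precision of genes near background, such as Cdc45 in the adult.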
